A study of Mus musculus with 8 samples.

Results

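The late cornified envelope (Lce) and small proline-rich (Sprr) genes were described as 34 of the 15995 genes in the deposited table, chosen by symbol alone as every row that starts with Lce (20 genes) or Sprr (14 genes). RNA of newborn mouse epidermis had been sequenced in 4 libraries from Zfp750 knockout mice (genotype ZFP750-/-) and 4 from wild-type mice, all of the C57BL/6J strain. Zfp750 is a zinc finger regulator of epidermal differentiation, and the study asks about its part in skin lipid metabolism and the skin barrier. The labels do not say which part of the gene was removed, whether it was removed in all tissues, or whether each library came from a different pup, so the tests measure the spread between these libraries. The titles of knockouts 1 and 2 share the number 1, and whether both came from the same pup is not given. Each title also carries a code that the labels do not explain. Code 11 stands on knockout 1 and wild type 4, code 14 on knockout 2 and wild type 3, and code 44 on knockouts 3 and 4 and wild types 1 and 2.

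Cells that leave the living epidermis replace their membrane with the cornified envelope, a protein shell that transglutaminases cross-link on its inner face. Lce proteins are small, rich in glycine, serine and cysteine, and join this shell late. The Lce1 group is the one known from intact skin, and the Lce3 group is known for its induction after barrier injury. Sprr proteins carry short proline-rich repeats between ends that transglutaminases use, and are thought to bridge other envelope proteins. Sprr1 and Sprr2 genes are known to be induced in stressed or injured epidermis, and Sprr3 belongs to the lining of the mouth and oesophagus. All these genes lie in the epidermal differentiation complex, which in the mouse is on chromosome 3.

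Values below are FPKM (fragments per kilobase of transcript, scaled to the mapped fragments of the library), and lists of 4 values run from replicate 1 to 4 of a genotype. Zfp750 itself had 2.68, 2.31, 2.29 and 1.53 FPKM in the knockouts and 119, 111, 81.6 and 93.7 FPKM in the wild types, a difference of -5.00 ± 0.16 on the log2(FPKM + 1) scale. The libraries held 10637 to 11599 genes at 1 FPKM or more, and their depth in reads is unknown. The tissue label was checked against markers. The keratinocyte genes Krt5, Krt14 and Lor had values in all libraries, while Krt1 and Krt10, the main suprabasal keratins, appeared in knockouts 1 and 2 only (Krt1 at 12094 and 13833 FPKM, Krt10 at 11387 and 13519 FPKM) and are listed at 0 elsewhere, which can be a failed estimate. Pecam1, the endothelial marker listed, reached at most 0.495 FPKM. Xist, which coats the inactive X, stood at 126, 84.6, 150.4 and 1.84 FPKM in the knockouts and 0.0223, 0.00870, 118 and 0.00825 FPKM in the wild types. High values stood in knockouts 1, 2 and 3 and in wild type 3, so this RNA was not balanced between the genotypes.

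Promoter sequences show how the 2 families differ around their starts. RefSeq (GRCm38.p6) gave promoters, from 250 bases before to 50 after the annotated start, for 31 of the 34 genes, and Lce1f, Sprr2g and Sprr2j-ps had no entry. Shown are 2 Sprr genes called higher in the knockouts (Sprr2d, Sprr1b), a relative of each that was not (Sprr2h, Sprr1a), and 2 Lce1 genes called lower (Lce1i, Lce1m). Capitals mark each match, on either strand, to TATAAA (the TATA box), TGANTCA (the AP-1 site), TGACNNNGC (the antioxidant response element), CCNNAGGC (the motif known for human ZNF750), AACCNGTT (Grainyhead-like factors) or GGGNGTGG (KLF factors). TGANTCA and TGACNNNGC can overlap and do so once, in Sprr1a. Sprr2d (chr3:92338890-92339189, plus strand), Sprr2h (chr3:92385435-92385734, plus strand), Sprr1b (chr3:92438730-92439029, minus strand), Sprr1a (chr3:92485832-92486131, minus strand), Lce1i (chr3:92778850-92779149, minus strand) and Lce1m (chr3:93019012-93019311, minus strand) read 5′ to 3′ as follows.
Sprr2d: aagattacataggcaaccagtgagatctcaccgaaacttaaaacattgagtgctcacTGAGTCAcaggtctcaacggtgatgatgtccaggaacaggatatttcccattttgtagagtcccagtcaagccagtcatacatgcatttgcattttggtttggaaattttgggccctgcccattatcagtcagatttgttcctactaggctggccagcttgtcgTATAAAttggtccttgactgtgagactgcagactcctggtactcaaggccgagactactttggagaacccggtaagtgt
Sprr2h: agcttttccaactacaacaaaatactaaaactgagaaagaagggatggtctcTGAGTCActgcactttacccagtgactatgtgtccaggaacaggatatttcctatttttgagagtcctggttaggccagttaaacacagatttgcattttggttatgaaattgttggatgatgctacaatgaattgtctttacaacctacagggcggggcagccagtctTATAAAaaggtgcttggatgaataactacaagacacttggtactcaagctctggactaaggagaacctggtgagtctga
Sprr1b: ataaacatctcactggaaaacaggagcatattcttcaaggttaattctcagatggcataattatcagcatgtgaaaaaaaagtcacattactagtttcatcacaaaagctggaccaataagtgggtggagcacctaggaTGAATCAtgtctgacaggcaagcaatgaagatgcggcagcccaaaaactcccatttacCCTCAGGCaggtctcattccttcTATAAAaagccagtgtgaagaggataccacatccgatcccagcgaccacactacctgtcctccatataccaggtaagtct
Sprr1a: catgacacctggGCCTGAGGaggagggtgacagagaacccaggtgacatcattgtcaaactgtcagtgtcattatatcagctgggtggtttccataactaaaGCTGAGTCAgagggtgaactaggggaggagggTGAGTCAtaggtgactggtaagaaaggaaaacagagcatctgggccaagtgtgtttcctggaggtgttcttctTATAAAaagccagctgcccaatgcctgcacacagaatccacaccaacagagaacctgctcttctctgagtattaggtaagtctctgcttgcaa
Lce1i: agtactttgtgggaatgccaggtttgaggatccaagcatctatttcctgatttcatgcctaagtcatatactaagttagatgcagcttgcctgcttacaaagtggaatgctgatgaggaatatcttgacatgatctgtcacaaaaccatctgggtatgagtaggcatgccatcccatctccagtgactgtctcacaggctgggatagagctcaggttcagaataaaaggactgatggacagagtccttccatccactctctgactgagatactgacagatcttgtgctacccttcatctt
Lce1m: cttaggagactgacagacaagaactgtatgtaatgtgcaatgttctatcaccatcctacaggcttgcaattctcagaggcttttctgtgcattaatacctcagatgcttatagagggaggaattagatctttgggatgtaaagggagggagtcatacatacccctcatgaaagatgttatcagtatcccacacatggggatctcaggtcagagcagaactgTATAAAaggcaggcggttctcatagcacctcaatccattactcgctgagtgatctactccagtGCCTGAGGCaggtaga

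Lce1 genes, the bulk of the module, were lower in the knockouts. All 13 Lce1 genes were tested, 9 of them fell and none rose (limma, Benjamini-Hochberg adjusted p under 0.05), and all 13 differences were negative, with a median of -0.85 on the log2(FPKM + 1) scale. Of all 11395 tested genes 15.7% were called, 8.94% lower, and the median difference was 0.0072. For 10 of the 13 the knockouts lay wholly below the wild types, as did 12.5% of all tested genes. Summed over the 13 genes the level was 3691, 5112, 4201 and 4452 FPKM in the knockouts and 8956, 7012, 13048 and 7965 FPKM in the wild types. The lowest wild type was above the highest knockout, and wild type 3 was the highest library. With wild types 2 and 4 as the only controls, and with knockouts 3 and 4 against all wild types, 3 of the 9 kept the call each time, namely Lce1h, Lce1i and Lce1m (both alternatives chosen after seeing the data). In bulk epidermis, fewer cells of the layer that makes these RNAs and less of each RNA per cell cannot be told apart.

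Lce1m was the most abundant member in every library. Its values were 1103, 1555, 1065 and 1331 FPKM in the knockouts and 3171, 2775, 4143 and 3076 FPKM in the wild types. The lowest wild type was well above the highest knockout, and the difference was -1.38 ± 0.18 (SE; limma adjusted p = 0.00100). Lce1m has no 75-base stretch, the read length here, in common with the annotated transcripts of any other gene. It lies from 93017810 to 93019060 on the minus strand of chromosome 3 (GRCm38), apart from the other Lce1 genes and beyond the Lce3 genes.

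Lce1h and Lce1i, neighbours on the minus strand (from 92763215 to 92765065 and from 92777210 to 92778899), had the largest falls of the family. Lce1h stood at 46.5, 66.3, 58.8 and 36.3 FPKM in the knockouts and 198, 115, 293 and 158 FPKM in the wild types, a difference of -1.81 ± 0.28 (SE; limma adjusted p = 0.00247). Lce1i stood at 158, 205, 193 and 123 FPKM in the knockouts and 613, 382, 1004 and 481 FPKM in the wild types, a difference of -1.80 ± 0.29 (SE; limma adjusted p = 0.00280). The groups did not overlap for either gene, and knockout 4 was the lowest library of both. Lce1l had 54.7, 76.1, 68.3 and 40.6 FPKM in the knockouts and 187, 97.0, 333 and 146 FPKM in the wild types, with a difference of -1.55 ± 0.34 (SE; limma adjusted p = 0.0146). Lce1g had 101, 148, 133 and 90.7 FPKM in the knockouts and 305, 180.2, 489 and 239 FPKM in the wild types, with a difference of -1.28 ± 0.29 (SE; limma adjusted p = 0.0156). In both genes wild type 2 was the lowest wild type and still above all knockouts.

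The other called members fell by less. Lce1a1 had 468, 617, 570.4 and 608 FPKM in the knockouts and 909, 764, 1324 and 857 FPKM in the wild types (-0.74 ± 0.18, limma adjusted p = 0.0240). Lce1a2 had 291, 471, 358 and 357 FPKM in the knockouts and 650.5, 536, 965 and 549.7 FPKM in the wild types (-0.85 ± 0.21, limma adjusted p = 0.0258). Lce1b had 348, 486, 437 and 491 FPKM in the knockouts and 711, 569, 979 and 609 FPKM in the wild types (-0.68 ± 0.19, limma adjusted p = 0.0399). All 4 wild types were above all 4 knockouts in each of these 3 genes. Lce1c had 436, 634, 518 and 599.5 FPKM in the knockouts and 1007, 762, 1346 and 815 FPKM in the wild types (-0.82 ± 0.20, limma adjusted p = 0.0230), again with no overlap. These 4 genes lost the call without knockout 1, knockout 3 or wild type 1, which left 5 Lce1 genes called lower in each case. Lce1b also lost it without knockout 2, wild type 3 or wild type 4.

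Members that did not pass were Lce1d at -0.70 ± 0.23 (limma adjusted p = 0.0665), Lce1k at -0.85 ± 0.34 (0.133), Lce1e at -0.60 ± 0.31 (0.254) and Lce1f at -0.52 ± 0.32 (0.331). Lce1e stood at 152, 186, 194 and 172 FPKM in the knockouts and 231, 169.8, 559.6 and 228 FPKM in the wild types, and its wild-type values ran from below knockouts 2, 3 and 4 to far above all of them. Lce1 transcripts shared 0% to 13.5% of their 75-base words with other genes (median 5.26%), and 11 of the 13 shared under 10%. How the authors assigned reads that fit several genes was not given in the sources used here.

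**Figure D1:**
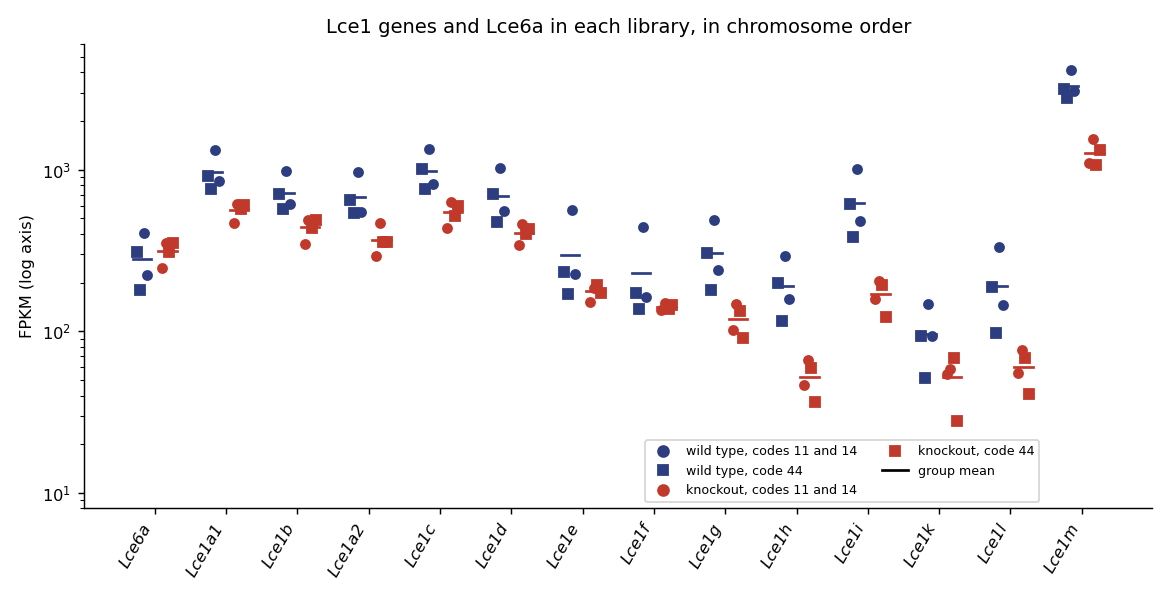
FPKM (log axis) of the 13 Lce1 genes and Lce6a in each library, ordered along chromosome 3, with circles for title codes 11 and 14, squares for code 44 and bars for group means (n = 4). Knockouts lie wholly below wild types for 10 Lce1 genes, and the groups overlap for Lce1e, Lce1f, Lce1k and Lce6a.

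The size of the fall differed along the cluster. For the 7 genes Lce1a1 to Lce1f the median difference was -0.70 (range -0.85 to -0.52), and for the 6 genes Lce1g to Lce1m it was -1.46 (range -1.81 to -0.85). This split was chosen after the values were seen and was not tested. The shares of Lce1 RNA within each library, given next, come from the same values and are no separate support for the split. Lce1a1 to Lce1f made up 58.9, 58.7, 62.3 and 63.0 percent of summed Lce1 FPKM in knockouts 1 to 4. In wild types 1 to 4 they made up 49.0, 48.7, 50.9 and 47.3 percent, with no overlap between the groups. Most of the rest was Lce1m, at 29.9, 30.4, 25.3 and 29.9 percent in the knockouts and 35.4, 39.6, 31.8 and 38.6 percent in the wild types, again with no overlap. The other 5 genes, Lce1g to Lce1l, made up 7.14 to 12.4 percent in the knockouts and 11.8 to 17.4 percent in the wild types, and there the groups overlapped. The ratio of Lce1i to Lce1e was 1.04, 1.10, 0.993 and 0.711 in the knockouts and 2.65, 2.25, 1.79 and 2.11 in the wild types. Every knockout had a ratio of 1.10 or below, and every wild type 1.79 or above. Lce1i had a larger negative difference than Lce1e in the fit above, so this ratio restates those values and was not tested.

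Lce6a, the single Lce6 gene, next to the Lce1 genes (from 92620081 to 92621660, minus strand), did not pass. It stood at 248, 354, 308 and 352 FPKM in the knockouts and 311, 179, 405 and 224 FPKM in the wild types, a difference of 0.23 ± 0.24 (SE; limma adjusted p = 0.595), and the groups overlapped in full. It shares no 75-base word with another gene. None of the 9 fallen Lce1 genes had such an overlap.

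The 6 Lce3 genes, which lie between Lce1l and Lce1m, had no shared direction between genotypes. None was called higher or lower by limma, where 15.7% of all tested genes were called, and 0 had an unadjusted p under 0.05. The median difference was -0.49, with 4 negative and 2 positive. Their SEs were 0.48 to 1.05, against a median SE of 0.17 over all tested genes, so smaller differences could be missed. In all 6 genes knockouts 1 and 2 were above knockouts 3 and 4. Lce3c, the most abundant, stood at 156, 111, 34.5 and 19.1 FPKM in the knockouts and 134, 98.2, 202 and 72.2 FPKM in the wild types, a difference of -1.0 ± 0.61 (SE; limma adjusted p = 0.335). Lce3d stood at 97.3, 82.1, 11.5 and 1.56 FPKM in the knockouts and 18.8, 7.56, 27.4 and 7.56 FPKM in the wild types, a difference of 0.66 ± 1.05 (SE; limma adjusted p = 0.731). Lce3e stood at 57.3, 43.3, 12.1 and 2.99 FPKM in the knockouts and 35.8, 15.3, 56.0 and 14.4 FPKM in the wild types, a difference of -0.49 ± 0.80 (SE; limma adjusted p = 0.737). Knockouts 3 and 4 were the lowest libraries for Lce3c and Lce3e, while for Lce3d knockout 3 lay within the wild-type range and knockout 4 below it.

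Lce3f showed the same split, at 15.9, 11.2, 0.914 and 1.67 FPKM in the knockouts and 6.54, 0.386, 14.8 and 2.02 FPKM in the wild types. Lce3a and Lce3b were scarce, with at most 1.58 and 2.29 FPKM in the knockouts and 4.00 and 5.73 FPKM in the wild types, and each had no value in wild type 2. The highest wild type was wild type 3 for all 6 genes. Lce3c to Lce3f shared 28.0% to 45.6% of their 75-base words with other genes, mostly with one another, so the single values of these 4 genes are uncertain.

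Among the Sprr genes more were called higher than lower. Of 14 listed genes 12 were tested, 3 rose (Sprr1b, Sprr2d and Sprr2k), 1 fell (Sprr4) and 8 did not pass. The differences of 11 were positive, and the median of the 12 was 2.24, against 0.0072 over all tested genes. Of all tested genes 6.72% were called higher and 8.94% lower. For the 3 that rose the knockouts lay wholly above the wild types, as for 8.78% of all tested genes. Sprr2a2 and Sprr3 did not reach 1 FPKM in 4 libraries and were not tested, and Sprr3, like Sprr4, had lower values in the knockouts.

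Sprr1b was the most abundant Sprr gene in the knockouts. Its values were 636, 653, 309 and 252 FPKM in the knockouts and 106, 34.7, 173 and 54.2 FPKM in the wild types. The lowest knockout was above the highest wild type, and the difference was 2.45 ± 0.50 (SE; limma adjusted p = 0.00971). Its neighbour Sprr1a did not pass. Sprr1a stood at 389, 376, 38.9 and 19.6 FPKM in the knockouts and 116, 63.2, 191 and 64.0 FPKM in the wild types, a difference of 0.09 ± 0.93 (SE; limma adjusted p = 0.963). Knockouts 1 and 2 were the highest of the 8 libraries, and knockouts 3 and 4 the lowest. The ratio of Sprr1b to Sprr1a was therefore 1.63, 1.74, 7.95 and 12.9 in the knockouts and 0.914, 0.550, 0.908 and 0.847 in the wild types. All 4 knockouts had more Sprr1b than Sprr1a per length, and all 4 wild types had less. This ratio was picked after its values were seen and was not tested. Neither gene shares a 75-base word with another gene. Sprr1b lies from 92436809 to 92438789 and Sprr1a from 92483952 to 92485895, both on the minus strand.

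Sprr2d led the Sprr2 group. It had 279.8, 268, 141 and 156 FPKM in the knockouts and 47.0, 17.2, 80.2 and 17.9 FPKM in the wild types, a difference of 2.58 ± 0.47 (SE; limma adjusted p = 0.00588). Every knockout was above every wild type, by the smallest margin between knockout 3 and wild type 3. Sprr2k stood at 9.41, 25.3, 5.86 and 4.01 FPKM in the knockouts and 2.58, 0.916, 2.22 and 1.06 FPKM in the wild types, a difference of 1.92 ± 0.46 (SE; limma adjusted p = 0.0221). Its groups did not overlap either, but the call was lost without knockout 1, wild type 2 or wild type 4, and under 4 further settings. Sprr1b and Sprr2d held in every fit but that of knockouts 3 and 4 against all 4 wild types, an alternative chosen after seeing the data, where no Sprr gene was called higher. Sprr2d shares 0.330% of its 75-base words with another gene and Sprr2k none.

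The 7 other tested Sprr2 genes had positive log2 differences between 1.30 ± 0.50 for Sprr2b and 2.97 ± 1.06 for Sprr2g, and none passed (limma adjusted p from 0.0870 to 0.309). Their knockouts were widely spread. Sprr2g, annotated as a pseudogene in some strains, stood at 147, 130.2, 12.2 and 4.72 FPKM in the knockouts and 3.91, 0.833, 12.6 and 2.17 FPKM in the wild types. Sprr2e stood at 66.0, 75.1, 5.16 and 3.80 FPKM in the knockouts and 3.66, 0.733, 5.63 and 0.992 FPKM in the wild types. Sprr2f stood at 21.4, 48.2, 0.601 and 1.01 FPKM in the knockouts and 0.251, no value, 1.16 and no value in the wild types. In these 3 genes knockouts 1 and 2 were over 10 times as high as knockouts 3 and 4, which lay within the wild-type range.

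Sprr2i stood at 37.6, 58.0, 0.859 and 0.296 FPKM in the knockouts and 1.20, 0.401, 3.66 and 0.340 FPKM in the wild types. Sprr2j-ps stood at 42.9, 43.4, 1.35 and 1.10 FPKM in the knockouts and 0.443, 0.548, 1.84 and 0.236 FPKM in the wild types. Both had at most 1.35 FPKM in knockouts 3 and 4 and at least 37.6 FPKM in knockouts 1 and 2. Sprr2h stood at 90.4, 82.7, 23.4 and 25.9 FPKM in the knockouts and 18.1, 13.1, 29.2 and 15.2 FPKM in the wild types, with knockouts 3 and 4 inside the wild-type range. Sprr2b, at 2.19 to 17.4 FPKM in the knockouts and 1.02 to 3.37 FPKM in the wild types, overlapped as well. Sprr2a2 had at most 0.679 FPKM in any library. Its annotated model shares 94.7% of its 75-base words with Sprr2a1, so its level is uncertain. All other Sprr2 genes shared at most 6.08%.

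Sprr4, a single gene between Sprr1a and Lce6a, fell. Its values were 0.796, no value, 0.575 and no value in the knockouts and 7.45, 7.13, 15.0 and 16.8 FPKM in the wild types, a difference of -3.19 ± 0.32 (SE; limma adjusted p = 1.82e-04), and it passed in each of the 21 other settings tried. No knockout reached 1 FPKM and no wild type was below 7. It passed the filter through the wild types alone, so a gene of this kind had to differ to be tested. Its annotated transcript is a single exon of 231 bases (from 92500263 to 92500493, minus strand), and how fragment length was handled for so short a transcript was not given in the sources used here.

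Sprr3 had values in some wild types and almost none in the knockouts. Sprr3 values were 0.322, 0.327, no value and 0.0698 FPKM in the knockouts and 15.9, no value, 11.3 and 3.77 FPKM in the wild types. The markers of oral and oesophageal epithelium, Krt4 and Krt13, were high in the same libraries. Krt4 stood at 0.571, 0.226, 0.0553 and 0.0371 FPKM in the knockouts and 20.5, 0.104, 14.1 and 0.621 FPKM in the wild types. Krt13 stood at 0.480, 0.355, 0.215 and 0.226 FPKM in the knockouts and 26.4, 0.979, 19.2 and 4.03 FPKM in the wild types. Krt76, the third marker on this list, was at most 0.229 FPKM in any library. The summed level of the 3 markers was 0.263 to 1.13 FPKM in the knockouts and 1.08 to 46.9 FPKM in the wild types. Wild types 1 and 3 were the highest for Sprr3 and for both keratins, and Crnn, an envelope gene of the same lining, was highest there as well, at 5.45 and 7.92 FPKM. The part of such cells in the Sprr3 values was not tested.

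**Figure D2:**
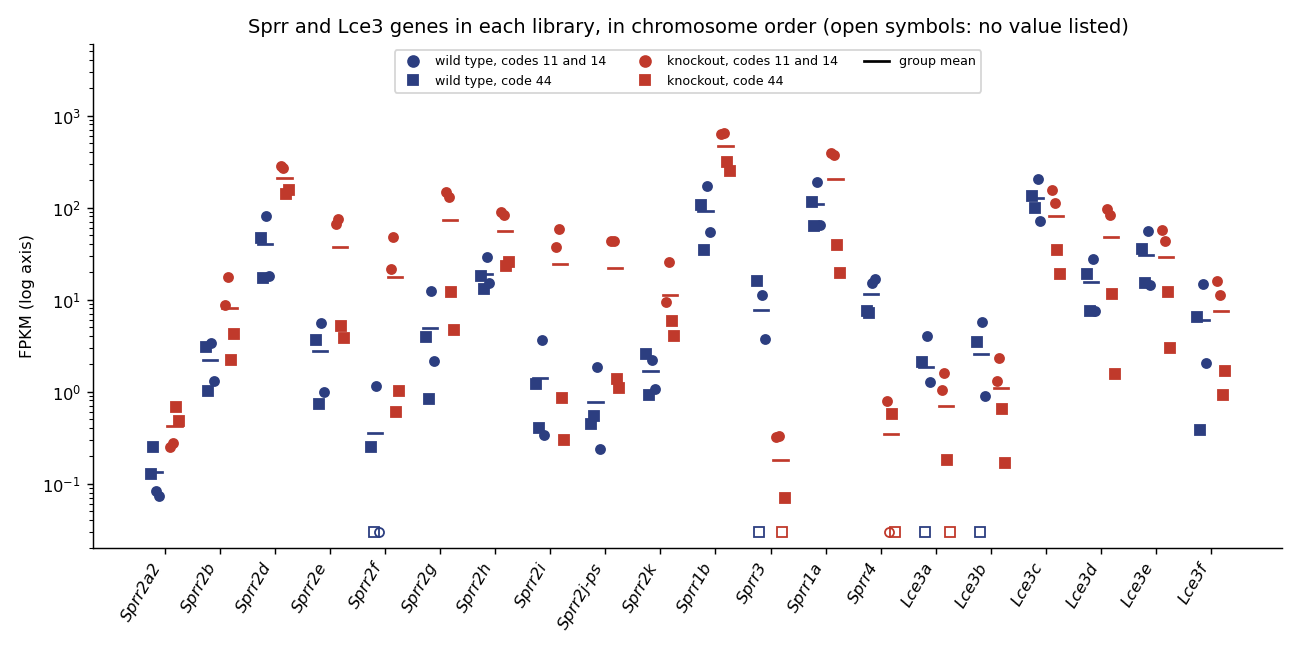
FPKM (log axis) of the Sprr and Lce3 genes in each library, ordered along chromosome 3, with circles for title codes 11 and 14, squares for code 44, bars for group means (n = 4, no value taken as 0) and open symbols where no value is listed. Knockouts of codes 11 and 14 stand above all other libraries for most Sprr2 genes and Sprr1a, while for Sprr1b and Sprr2d all 4 knockouts are above the wild types.

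The families were set side by side in each library. Summed over 14 genes, Sprr stood at 1729.9, 1778, 542 and 473 FPKM in the knockouts and 326, 140.1, 531 and 178 FPKM in the wild types. Knockout 4 was the lowest knockout and lay below wild type 3. Summed over 20 genes, Lce stood at 4267, 5718, 4569.6 and 4829 FPKM in the knockouts and 9467, 7313, 13764 and 8288 FPKM in the wild types, with no overlap. The ratio of summed Lce to summed Sprr was 2.47, 3.22, 8.42 and 10.2 in the knockouts and 29.0, 52.2, 25.9 and 46.5 in the wild types. Every wild type had over 25 times as much Lce as Sprr, and every knockout at most 10.2 times. The Sprr2 sum, with no overlap, went from 73.6 ± 48.7 to 462 ± 306 FPKM (SD, n = 4), and the Sprr1 sum, with overlap, from 201 ± 122 to 668 ± 415 FPKM (SD, n = 4). Sprr2d made up 39.8, 35.8, 73.0 and 77.4 percent of the Sprr2 sum in knockouts 1 to 4. In the wild types it made up 45.5 to 58.5 percent. Of the other Sprr2 genes only Sprr2k had no overlap, so the separation of the sum is not shared by the whole group. The Lce1 sum went from 9245 ± 2657 to 4364 ± 591 FPKM (SD, n = 4). These sums are descriptions and carry no test. Among the tested genes, which leave out Sprr2a2 and Sprr3, the differences along the chromosome were positive from Sprr2b to Sprr1a (0.09), negative for Sprr4, slightly positive for Lce6a (0.23) and negative for every Lce1 gene.

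**Figure D3:**
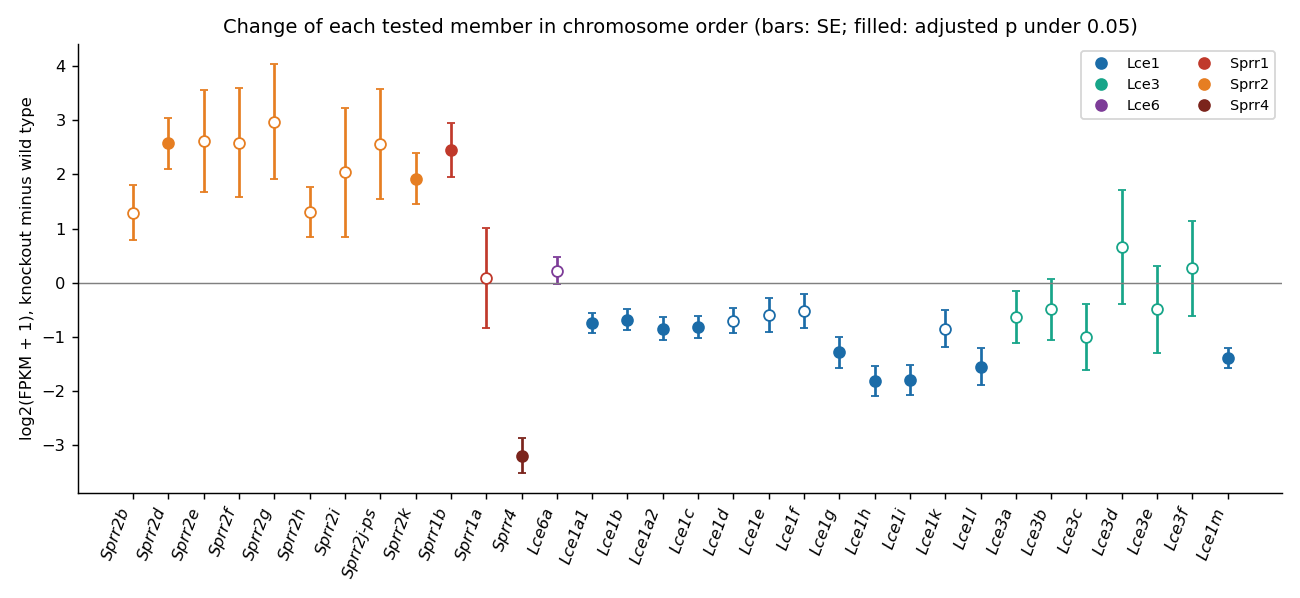
Difference in log2(FPKM + 1), knockout minus wild type, of the 32 tested members in their order along chromosome 3, with bars for the SE (n = 4 per genotype) and filled points for an adjusted p under 0.05. Sprr1b and the Sprr2 genes lie above 0, Sprr1a at 0.09, Sprr4 at -3.19, all 13 Lce1 genes below 0, and the Lce3 genes on both sides.

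Codes 11 and 14, each with 1 knockout and 1 wild type, were pooled and set beside code 44. This gave 2 separate comparisons that share no library. In codes 11 and 14 (knockouts 1 and 2 against wild types 3 and 4) 11 of the 12 tested Sprr genes were called higher, where 5.73% of all genes were (14.7% in either direction). In code 44 (knockouts 3 and 4 against wild types 1 and 2) Sprr1b and Sprr2d were called higher, where 5.53% of all genes were (10.4% in either direction). Sprr4 was called lower in both. Sprr2d changed by 2.81 ± 0.60 (SE) in codes 11 and 14 and by 2.34 ± 0.43 in code 44. Sprr1b changed by 2.72 ± 0.49 and 2.18 ± 0.48. The values for Sprr2j-ps were 4.56 ± 0.36 and 0.57 ± 0.25, and only the first passed. In code 44 this gene stood at 1.35 and 1.10 FPKM in the knockouts and 0.443 and 0.548 FPKM in the wild types. At such levels log2(FPKM + 1) understates a change. For Sprr1a the changes were 1.78 ± 0.46, which passed, and -1.60 ± 0.40, which did not (limma adjusted p = 0.0480 and 0.0599). The column header of each library also holds a number whose meaning was not given in the sources used here. It starts with 2508 for knockouts 1 and 2 and wild type 2, and with 2478 for the other libraries. Within codes 11 and 14 this number and genotype cannot be told apart. Among the knockouts it splits the libraries as the codes do.

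Lce1 differences were negative for all 13 genes in both comparisons, with medians of -1.04 and -0.65. In codes 11 and 14, 6 Lce1 genes were called lower (8.92% of all genes were), and these were the 6 from Lce1g to Lce1m. In code 44 it was 4 (4.84% of all genes), namely Lce1a2, Lce1h, Lce1i and Lce1m. The split at Lce1g was chosen on these same libraries, so neither comparison is separate support for it. Among Lce3 genes, Lce3d was called higher in codes 11 and 14 (2.53 ± 0.50) and Lce3c lower in code 44 (-2.11 ± 0.30). Lce3 differences had a median of 0.45 in codes 11 and 14 and of -0.95 in code 44.

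Whether the genotype difference itself depended on the code was tested with an interaction term in 1 limma fit, added after the data were seen. No gene passed (0 of 11395, 0% called), and 15.5% had an unadjusted p under 0.05, 3.28% with a more positive change in codes 11 and 14. Among the members, 7 of 12 Sprr genes and 3 of 20 Lce genes, each of them an Lce3 gene, had such a p, all in that direction. The smallest adjusted p was that of Sprr2j-ps (0.0770, difference 3.98 ± 0.48), followed by Sprr2f and Sprr2i (both limma adjusted p = 0.153). All of these genes had at most 1.35 FPKM in code 44, where log2(FPKM + 1) understates changes, which adds to such differences between codes. For Sprr1b the difference was 0.54 ± 0.84 and for Lce1m -0.13 ± 0.35 (limma adjusted p = 0.816 and 0.910). With the code as a term in place of the interaction, 9 Sprr genes were called higher and 10 Lce1 genes lower, where 9.07% and 10.8% of all genes were (19.8% in either direction). What the codes stand for is not given, so they are not called a batch here.

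**Figure D4:**
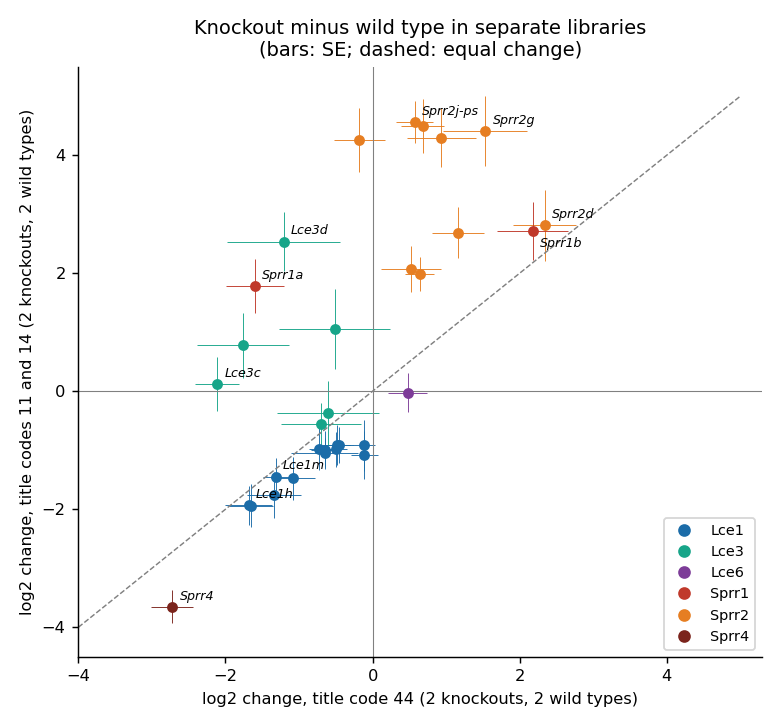
Log2 change (knockout minus wild type, log2(FPKM + 1)) of each tested member in title code 44 (x axis) against title codes 11 and 14 (y axis), 2 knockouts and 2 wild types in each, with bars for the SE. Sprr1b and Sprr2d (above 0 on both axes) and Sprr4 and all Lce1 genes (below 0 on both) are within 0.97 of the line of equal change, while Sprr1a, Lce3d and Sprr2j-ps lie above it by 3.38, 3.74 and 3.98.

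Keratinocyte stress genes were measured beside the Sprr genes. Of 12 tested genes of the injury list 6 rose, where 6.72% of all genes did, among them the cytokine Il1f6 (1.77 ± 0.11, limma adjusted p = 1.29e-05) and the calprotectin subunit S100a9 (5.09 ± 0.57, limma adjusted p = 3.74e-04). The 1 that fell was the protease inhibitor Serpinb3a (-3.52 ± 0.22, limma adjusted p = 1.44e-05). The list's summed level was 2169, 1708, 1155 and 842 FPKM in the knockouts and 785, 669, 1143 and 764 FPKM in the wild types. Knockouts 1 and 2 were highest and wild type 3, the highest wild type, lay within the knockout range. The wound keratins Krt6a, at 125, 95.6, 24.8 and 9.18 FPKM in the knockouts and 12.4, 2.73, 32.9 and 6.69 FPKM in the wild types, and Krt16, at 552, 303, 167 and 96.1 FPKM in the knockouts and 158, 58.2, 298 and 39.7 FPKM in the wild types, did not pass. Krt6b, the other wound keratin of the list, rose and was highest in knockout 3, at 107, 99.4, 127 and 36.2 FPKM in the knockouts and 11.8, 6.88, 42.0 and 8.97 FPKM in the wild types. Il1f6 was at 83.4 to 105 FPKM in the knockouts, and both it and its relative Il1f9, which also rose, were highest in knockout 4, so the members of the list did not share 1 order of libraries. The part of this state in the Sprr and Lce3 values was not tested.

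Other genes of the envelope moved in both directions. Of 18 tested scaffold and cross-linking genes 2 rose and 4 fell, where 6.72% and 8.94% of all genes did. One of the 4, Crnn, was below 1 FPKM in every knockout and passed the filter through the wild types alone. Those with the smallest p were Tchh, the trichohyalin of hair follicles, from 26.5 ± 6.27 to 437 ± 151 FPKM (3.95 ± 0.27, limma adjusted p = 2.16e-05), the transglutaminase Tgm5 from 28.0 ± 4.71 to 10.8 ± 0.812 FPKM (-1.29 ± 0.14, limma adjusted p = 2.75e-04), and the precursor involucrin, Ivl, from 195 ± 30.0 to 543 ± 132 FPKM (1.46 ± 0.19, limma adjusted p = 8.44e-04), with SDs over n = 4. Of 38 regulators of epidermal differentiation or of this gene complex 6 rose and 2 fell, 8 called in all, where 15.7% of all genes were. Those with the smallest p were the ETS factor Elf3 (2.17 ± 0.19, limma adjusted p = 9.13e-05), the orphan receptor Rora (-0.64 ± 0.12, limma adjusted p = 0.00764) and the homeodomain protein Hopx (-0.61 ± 0.12, limma adjusted p = 0.00971). Nfe2l2, which encodes NRF2, a stress regulator known to act on Sprr2 genes, rose (1.10 ± 0.28, limma adjusted p = 0.0268). Of 11 tested NRF2 target genes outside the 2 families 0 rose (limma, 1 at an unadjusted p under 0.05) and 2 fell, where 6.72% and 8.94% of all genes did. The 2 were Me1 (-0.79 ± 0.13, limma adjusted p = 0.00316) and Gsta4 (-1.23 ± 0.22, limma adjusted p = 0.00509). The activity of NRF2 was not tested.

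Markers of cell types differed between the libraries as well. Of 5 basal keratinocyte markers 4 rose (6.72% of all genes did), and their summed level was 5600.3, 3943, 4692 and 1977 FPKM in the knockouts and 847, 1263, 2299 and 2742 FPKM in the wild types. Of the suprabasal list only Lor and Ivl were tested, and Ivl rose. Of the immune list Cd52, Ptprc and Cd74 were tested and all 3 fell (8.94% of all genes did). Ptprc was at 0.264 to 0.393 FPKM in the knockouts and passed the filter through the wild types alone, so it had to differ to be tested. The sum over the list was 3.46 to 5.34 FPKM in the knockouts and 20.1 to 35.1 FPKM in the wild types. Among hair follicle, fibroblast, melanocyte and erythroid markers none of 4, 4, 5 and 2 tested genes passed limma's test (0 of each at an unadjusted p under 0.05). No endothelial or muscle marker passed the filter, and the muscle sum was 23.8 FPKM in wild type 3 and at most 2.71 FPKM in the others. The part of these differences in the Lce and Sprr values was not tested.

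The promoters of the 2 families, shown above for 6 genes, differed in the motifs they hold. The AP-1 letters TGANTCA were in 9 of 12 Sprr promoters and in 0 of 19 Lce promoters, against 7.81% of the 32851 promoters in the table. In 7 of the 8 Sprr2 promoters they began at positions -198 to -193 from the start, so the match stood at nearly the same place in Sprr2d and Sprr2k, which rose, and in Sprr2b, Sprr2e, Sprr2f, Sprr2h and Sprr2i, which did not pass. Both Sprr1 promoters held the letters too, Sprr1b once and Sprr1a at 2 places. Sprr3, Sprr4 and Sprr2a2 held none. The Sprr2a2 promoter used, from 92250397 to 92250696, lies inside the GENCODE gene (from 92215920 to 92256724, plus strand), away from its start. Whether it is the promoter in use is unknown, so all motif results for Sprr2a2 are uncertain.

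TATAAA was in 10 of 12 Sprr promoters and 4 of 19 Lce promoters, against 13.6% of all promoters. It began at position -29 in 7 Sprr2 promoters and in Lce1m, and at -30 in Lce1d. The other Lce matches began much farther from the start, at -218 in Lce6a and -243 in Lce3e. The ZNF750 letters CCNNAGGC were in Sprr1a, Sprr1b, Lce1d and Lce1m alone among the 31, where 24.1% of all promoters hold them. They began before the start in Sprr1a (-238) and Sprr1b (-53). In Lce1d (11) and Lce1m (35 and 36) they began after it. TGACNNNGC was in 5 Lce promoters, 3 of them Lce3 genes, and 2 Sprr promoters (12.4% of all). GGGNGTGG was in 1 member promoter, that of Sprr2a2, against 17.6% of all, and AACCNGTT in none, against 2.09%. A match of letters is no evidence that a factor binds.

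By the median, promoters resembled each other within a group more than between the groups. The median identity of aligned promoter pairs was 65.0% within Lce1 (66 pairs, 51.0% to 86.0%) and 65.8% within Sprr2 (28 pairs, 49.7% to 89.1%), against 52.0% between Lce1 and Sprr2 (96 pairs, 48.7% to 55.3%). Pairs within Lce3 had a median of 59.5% (15 pairs). Some promoters were hardly closer to their own group than Lce1 was to Sprr2. Lce1m was at most 55.2% and Lce1l at most 56.2% identical to any other Lce1 promoter. Sprr2a2, with the uncertain start, was at most 53.3% identical to any other Sprr2 promoter. Pairs share their genes and are not independent, so no test is given.

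**Figure D5:**
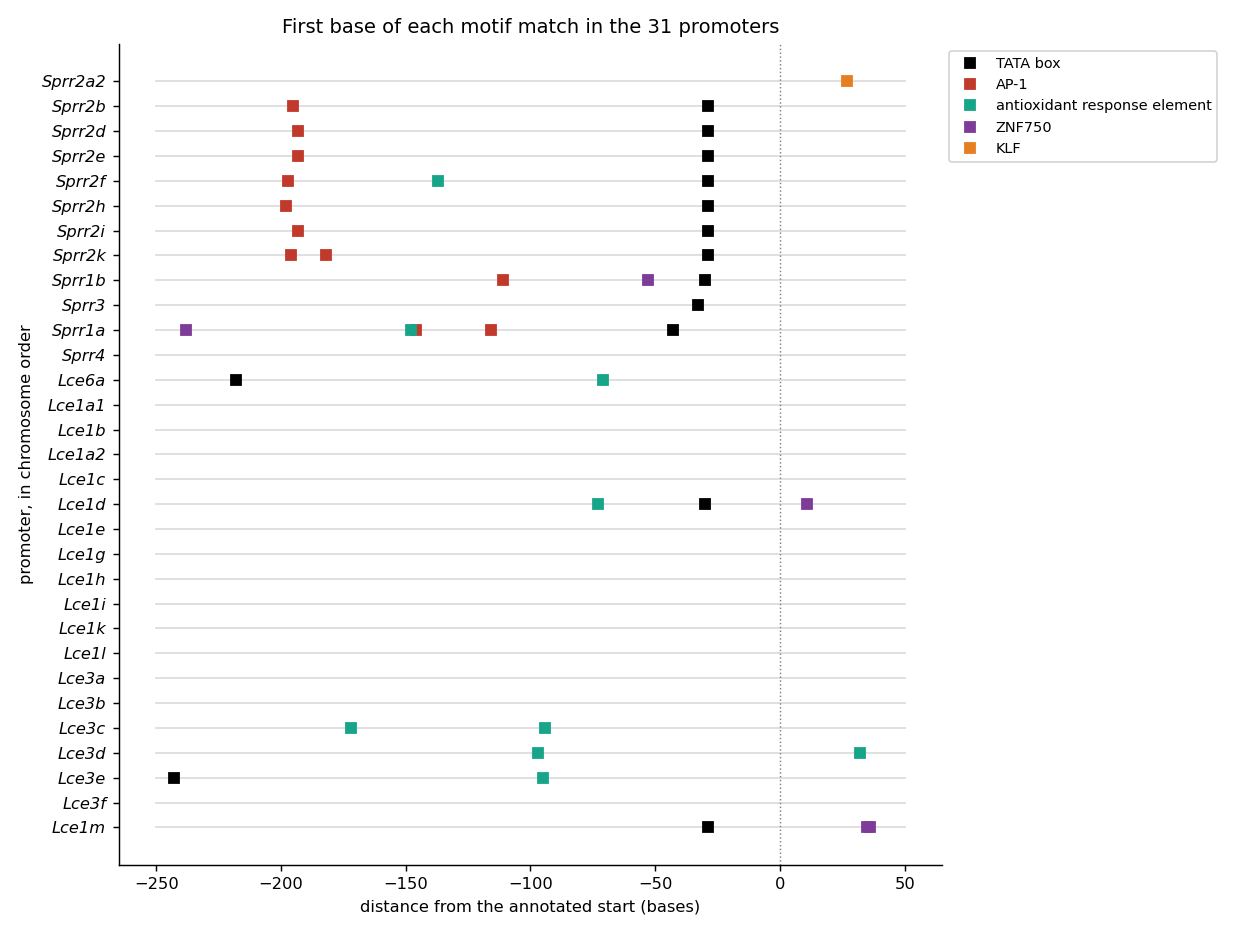
First base of each motif match (colours) in the 31 member promoters, with the distance from the annotated start in bases on the x axis and promoters in chromosome order on the y axis; AACCNGTT had no match. The AP-1 letters line up at -198 to -193 and the TATA box at -29 in 7 Sprr2 promoters, and no Lce promoter holds the AP-1 letters.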

How the data were processed

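RNA of newborn epidermis, depleted of ribosomal RNA, had been sequenced in read pairs of 75 bases with a stranded kit, per the labels' protocols, in 4 Zfp750 knockout and 4 wild-type libraries. The authors deposited 1 table of FPKM values, 1 per gene symbol and library. The submitters' processing notes name the build mm10, while the aligner, counting program, annotation and use of strand were not given in the sources used here. Every listed gene has a value in knockout 1, while each other library lacks a value for 603 to 1275 genes. Genes without a value in knockout 1 may therefore be absent, both from the 2 families and from the shares over all genes. Without known read depths, counting intervals cannot be given, and the number of libraries limits the precision. A missing value was taken as 0, and 4 genes with listed zeros (Krt1, Krt10, Flg2, Rn45s) were left out of the tests.

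Genes at 1 FPKM or more in at least 4 of 8 libraries (11395 of 15995) were tested on log2(FPKM + 1), which understates changes of low genes, with limma 3.58.1 (mean-variance trend) in R 4.3.3 and Benjamini-Hochberg adjustment at 0.05 over all tested genes. The procedure was tested on simulated data. Differences are knockout minus wild type. Alternatives changed the pseudocount (0.1, 0.5), the filter (none, 5 FPKM), the scaling, the weights, the terms for title code and Xist, and the libraries. The text names every member, and up to 3 called genes with the smallest p in each other list. Krt6a, Krt6b, Krt16, Il1f9, Crnn, Nfe2l2 and the marker genes were named after their values were seen. The members and lists were chosen with earlier results of these data known. Coordinates and transcripts are from GENCODE M21 (GRCm38, the same assembly as mm10). Promoter pairs were aligned globally with Biopython 1.88.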

Additional observations from a re-analysis of the deposited data

Results flagged for a closer look

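In wild type 3, Lce1e was at 559.6 FPKM and Lce1f at 445 FPKM, each farther from the other 3 wild types than Dixon's 95% criterion allows for 4 samples. Lce1e was at 169.8 to 231 FPKM and Lce1f at 136 to 172 FPKM in those libraries. In all 78 groups of 4 were checked in this way, of which chance alone marks about 1 in 20, and these 2 were found.

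The genotype difference of Sprr1a was larger by 3.38 ± 0.74 (SE, log2) in title codes 11 and 14 than in code 44 (limma adjusted p = 0.182 over all tested genes). Knockouts 1 and 2 lay above wild types 3 and 4, and knockouts 3 and 4 below wild types 1 and 2.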

How the results depend on the processing

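Of 686 values of single members and Zfp750 under the alternatives, 574 kept their direction and side of the threshold, 47 lost the call, 36 gained it and 29 changed sign. Zfp750, Lce1h, Lce1i, Lce1m and Sprr4 were called in each alternative, and all Lce1 differences stayed negative. The replicate numbers follow accession order and pair no samples. The block fitted was the title code.

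The counts of Lce genes called lower (9), Sprr genes called higher (3), and all genes called higher (766) and lower (1019) moved as follows. With array weights 10 Sprr genes were higher, 1942 genes higher and 1727 lower. With the title code as a term 9 Sprr genes were higher. With log2 Xist as a covariate 465 genes were higher and 676 lower. The difference of every tested Sprr2 gene was then smaller but positive, from 0.66 for Sprr2i to 1.90 for Sprr2d. Sprr1b was smaller too, at 1.68, and Sprr4 larger in size, at -3.54. In code 44 alone 5 Lce genes and 551 genes were lower. In codes 11 and 14 alone 1 Lce gene (Lce3d) and 11 Sprr genes were higher. With wild types 2 and 4 as the controls 3 Lce genes were lower, 302 genes higher and 429 lower. With knockouts 3 and 4 against 4 wild types 0 Sprr genes were higher by limma, 4 Lce genes (Lce3c among them) lower and 561 genes lower. The last 2 settings were chosen after seeing the data. Leaving out 1 library gave 5 to 10 Lce genes lower, 2 to 8 Sprr genes higher, 461 to 1059 genes higher and 633 to 1205 lower, and 8 Sprr genes came without knockout 4. Fewer libraries take part in these fits, and for the other settings the cause was not tested.

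Changes of sign were confined to members that limma did not call on all 8 libraries. In code 44 alone the differences were -0.18 for Sprr2i, -1.60 for Sprr1a, -1.21 for Lce3d and -0.52 for Lce3f, and with knockouts 3 and 4 alone -0.43, -1.78, -1.34 and -1.06. With Xist they were -1.11 for Sprr1a, -0.84 for Lce3d and -0.85 for Lce3f. In codes 11 and 14 alone they were -0.026 for Lce6a, 0.12 for Lce3c and 0.78 for Lce3e. With array weights they were 0.0020 for Lce3a, 0.16 for Lce3b and 0.40 for Lce3e, and with wild types 2 and 4 as controls 0.062, 0.51 and 0.28. Leaving out 1 library gave -0.54 to 0.87 for Sprr1a, -0.043 to 1.71 for Lce3d, -1.03 to 0.26 for Lce3e and -0.32 to 0.85 for Lce3f.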
